A study of Mus musculus with 22 samples.

Results

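The genes described here are those through which a heart receives and answers corticosterone, the stress hormone of mice. A set of 10 genes was taken by symbol from the deposited expression table of 21898 named genes: the receptors Nr3c1 and Nr3c2, the steroid-converting enzyme Hsd11b1, the receptor chaperones Fkbp4 and Fkbp5, and the direct targets Tsc22d3, Sgk1, Zbtb16, Hif3a and Slc10a6. The set was chosen with earlier results of these data known, so counts of its genes are a description and were not tested. All 10 were found, each under 1 entry, and all 10 passed the filter on low counts.

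Whole hearts of male mice that were 6 weeks old at the start were sequenced as paired-end total RNA libraries, 1 per mouse. The treatment group (4 mice) underwent chronic unpredictable psychological stress and was given JWH133, an agonist of the cannabinoid receptor CB2R, at 10 mg/kg in 2 intraperitoneal injections a day for 21 days, counted from the beginning of the stress. The case group (4 mice) was stressed without JWH133, and the control group (3 mice) was left unstressed. No strain and no vehicle injection are given in the sources used here, so the drug and the handling at injection cannot be told apart. Behavioural tests followed 24 hours after the stress, and the interval from the last stressor or test to the removal of the heart is likewise not given.

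Corticosterone enters the cell and binds the glucocorticoid receptor, which waits in the cytoplasm in a complex with HSP90 and the immunophilins FKBP51 and FKBP52. The bound receptor moves to the nucleus, sits on DNA as a dimer and switches on a fairly stable set of genes, one of which encodes FKBP51 itself and so closes a feedback loop. The mineralocorticoid receptor binds the same hormone with higher affinity. In cells without the inactivating enzyme 11beta-HSD2, a group that includes cardiomyocytes, corticosterone is its main ligand. The enzyme 11beta-HSD1 works the other way and regenerates active hormone inside the cell.

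The libraries were of like depth, with 29410822 to 30940449 counts in the treatment group, 29436126 to 34412849 in the case group and 29628337 to 32078770 in the control group. Heart identity was checked on 8 cardiomyocyte markers, whose summed level was 13463.5 to 15565 FPKM in the treatment hearts, 10200 to 15787 in the case hearts and 14752 to 15367 in the control hearts. FPKM, computed here from the deposited counts, is the count of a gene divided by its length and by the total count of the library, and it allows levels of different genes to be compared. One case library, called d after its column, stood apart from the other 3 of its group. On the first principal component of all genes (42.7% of the variance) it scored -9.81, whereas case libraries a to c scored 29.71 to 64.64, the treatment libraries -22.67 to -9.94 and the control libraries -27.71 to -23.34. The results of the 10 genes and the counts of the gene lists are therefore given with and without library d, and the reason for its position was not tested. Because library d was picked out from these same counts, p-values without it are descriptive and add no independent support. The letters a to d only name libraries.

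Upstream sequences are shown for the members that carry a complete receptor motif close to a start site. The search was made because the bound receptor sits on DNA as a dimer. Of the 10 genes, 8 had start-site windows in RefSeq (GRCm38.p6) that were searched, 15 windows in all, each covering 250 bases before and 50 bases after a start. The motif GNACANNNTGTNC (N for any base), which reads alike on both strands and so needs no second search, is the full palindromic site of the steroid receptor dimer. It was found in 2 of the 15 windows (13.3%), against 0.475% of the 32851 windows of all genes. The genes were a chosen list and 6 of the windows are of Sgk1 alone, so these shares are a description and were not tested. No full motif was found in any window of Fkbp4, Fkbp5, Hsd11b1, Hif3a, Nr3c2 or Tsc22d3. Below, the 250 bases before the start are printed 5′ to 3′ on the strand of the gene, with the motif in capitals. That of Slc10a6 lies at chr5:103629404-103629653, minus strand, outside the annotated gene. That of Sgk1 is 1 of 6 start windows of this gene, lies at chr10:21993640-21993889, plus strand, and falls within an intron of the longer transcripts.
Slc10a6: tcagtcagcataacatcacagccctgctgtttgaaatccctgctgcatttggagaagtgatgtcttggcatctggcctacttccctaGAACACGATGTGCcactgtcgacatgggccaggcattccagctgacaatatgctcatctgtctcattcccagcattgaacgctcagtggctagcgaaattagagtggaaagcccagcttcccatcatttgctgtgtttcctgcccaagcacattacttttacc
Sgk1: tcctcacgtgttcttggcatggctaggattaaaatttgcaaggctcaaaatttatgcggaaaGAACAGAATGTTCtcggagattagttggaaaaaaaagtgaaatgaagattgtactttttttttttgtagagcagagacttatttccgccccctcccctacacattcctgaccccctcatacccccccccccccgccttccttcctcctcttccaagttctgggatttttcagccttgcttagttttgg
Counted back from the start, the motif spans bases -163 to -151 in Slc10a6 (GAACACGATGTGC) and -188 to -176 in Sgk1 (GAACAGAATGTTC). The arms of the Sgk1 motif are exact reverse complements of each other, and those of the Slc10a6 motif are not.

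The shorter half-site, AGAACA on one strand or TGTTCT on the other, was present in 5 of the 15 windows (33.3%) and in 19.0% of all windows. It overlaps the full motif in both printed sequences, and it also occurred, without a full motif, at base -185 of 1 Tsc22d3 window (chrX:140600523-140600772, minus strand) and at bases -195 and -13 of 2 other Sgk1 windows. A match is only a run of letters, binding was not measured, and these shares were not tested either. Sites far from the start, as known for Fkbp5 in its introns, would not be seen in such a window.

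In unstressed hearts the set spanned a wide range of levels. Fkbp4 led with a control mean of 131 ± 1.91 FPKM (SD, n = 3), followed by Zbtb16 (39.6 ± 6.55), Tsc22d3 (30.7 ± 1.58), Sgk1 (29.6 ± 4.27) and Nr3c1 (24.6 ± 1.22). Nr3c2 (9.02 ± 0.651), Fkbp5 (4.95 ± 1.10), Slc10a6 (2.76 ± 0.460), Hsd11b1 (2.23 ± 0.123) and Hif3a (0.560 ± 0.00194) lay below. Among neighbours in this order, Tsc22d3 and Sgk1 overlapped between libraries, as did Slc10a6 and Hsd11b1. The others kept their order in each control library, although Sgk1 and Nr3c1 came close, at 26.0 to 34.3 and 23.6 to 26.0 FPKM.

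**Figure D1:**
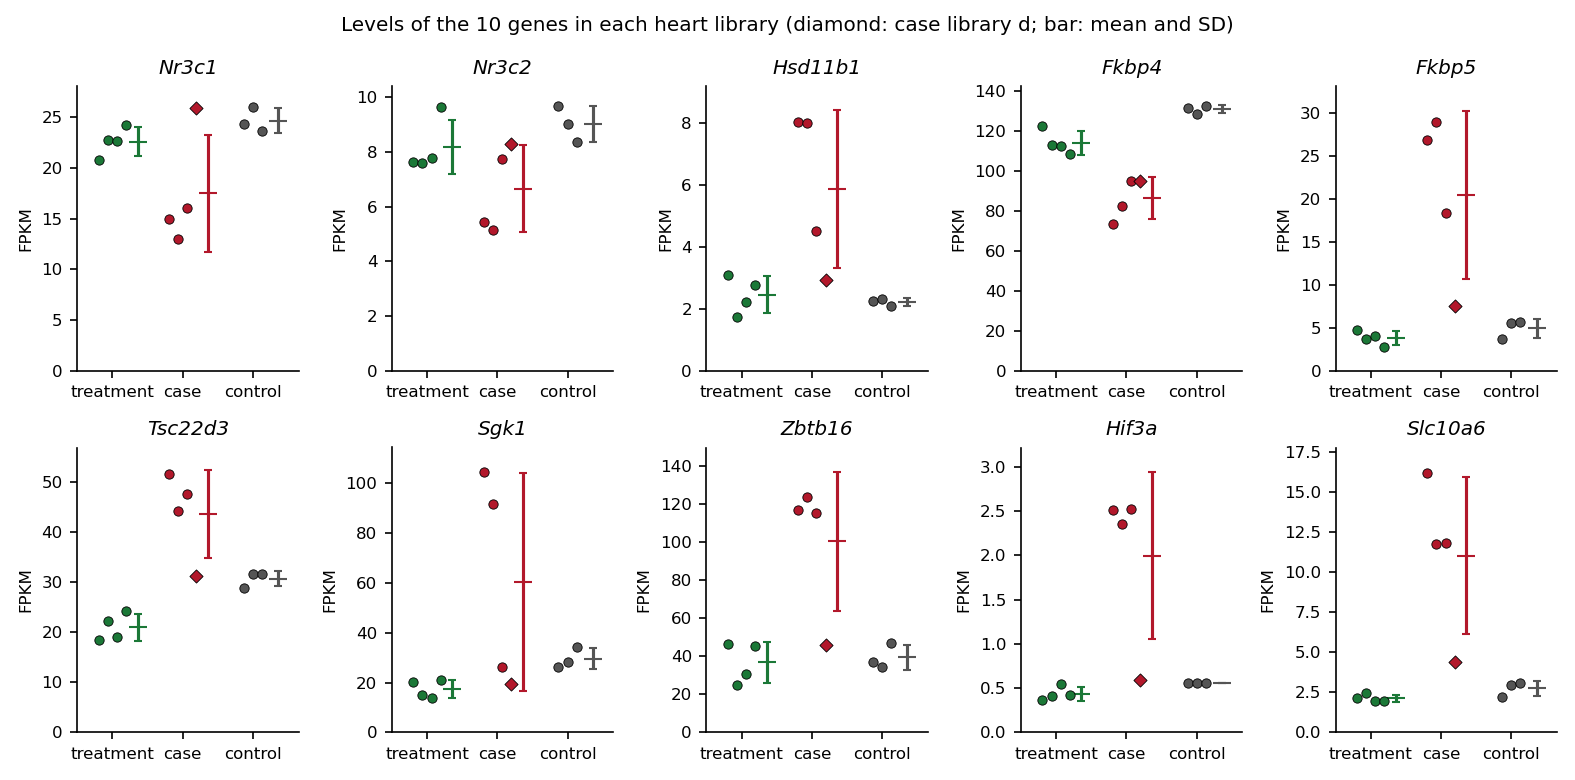
Level of each of the 10 genes in FPKM (vertical axis, from 0, scaled per gene) in every library of the treatment (n = 4), case (n = 4) and control (n = 3) groups. Circles are libraries, the diamond is case library d, and the bar beside each group is its mean with SD. Case libraries a to c of Fkbp5, Hif3a, Slc10a6, Zbtb16 and Hsd11b1 lie above all treatment and control points, while library d lies near them.

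Set against control hearts, case hearts had 5 of the 10 genes higher and 3 lower at a Benjamini-Hochberg adjusted p under 0.05 by edgeR's quasi-likelihood test. Fkbp5, Slc10a6, Hif3a, Hsd11b1 and Zbtb16 were the genes that rose, and Fkbp4, Nr3c1 and Nr3c2 those that fell. Over all 14050 genes tested, 8.21% were called higher and 7.55% lower. In the treatment group against the case group the calls ran the opposite way, with 7 genes lower (all 5 targets, Fkbp5 and Hsd11b1) and Fkbp4 higher, beside 6.57% and 4.33% of all genes. Both comparisons use the same case hearts, so their opposite signs are not independent of each other. Because the set was chosen with earlier results known, its counts beside the shares of all genes are a description only. Between treatment and control hearts no gene of the set passed, and 1.08% of all genes did (0.292% higher and 0.79% lower).

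The glucocorticoid receptor gene Nr3c1 lies at chr18:39410545-39519421, minus strand (this and all later gene positions from GENCODE M21, GRCm38). Its level was 20.7, 22.8, 22.6 and 24.2 FPKM in treatment hearts, 15.0, 12.99, 16.05 and 25.9 FPKM in case hearts and 24.3, 26.0 and 23.6 FPKM in control hearts. Case libraries a to c were the lowest of all 11, and case library d was within the control range. The receptor transcript fell in the case group against the control group (log2 fold change -0.50 ± 0.157 (SE), adjusted p = 0.0492 by edgeR). That call was marginal, since it was lost in 10 of the 11 fits that leave out 1 library (adjusted p up to 0.148) and kept without case library d (-0.71, adjusted p = 8.18e-05). Treatment hearts did not pass against case hearts (0.36 ± 0.146, adjusted p = 0.123), but did without library d (0.57, adjusted p = 0.000298).

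The mineralocorticoid receptor gene Nr3c2 (chr8:76899442-77245012, plus strand) was read at 7.63, 7.61, 7.78 and 9.64 FPKM in treatment hearts, 5.43, 5.15, 7.72 and 8.29 FPKM in case hearts and 9.68, 9.004 and 8.38 FPKM in control hearts. Every case heart was below every control heart, with case libraries c and d close to the control range. It fell in the case group (-0.45 ± 0.137 against control, adjusted p = 0.0470). This call too was close to the threshold: it was lost in 8 of the 11 fits without 1 library (adjusted p up to 0.169), whereas without case library d the change was -0.53 (adjusted p = 0.00958). Against the case group, treatment hearts differed by 0.28 ± 0.128 (adjusted p = 0.157), and without library d Nr3c2 rose by 0.37 (adjusted p = 0.0392).

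The ratio of Nr3c1 to Nr3c2 was alike in the 3 groups, at 2.78 ± 0.215 in treatment, 2.62 ± 0.440 in case and 2.74 ± 0.202 in control hearts (FPKM over FPKM, SD). The lowest and the highest ratio of all libraries were both in the case group, 2.08 in library c and 3.13 in library d. By the distance of their library profiles, given further on, these receptors were also the closest pair of the set. Both profiles varied little (SD 0.312 and 0.266 on the log2 scale), which by itself makes such a distance small.

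Hsd11b1 (chr1:193221634-193264075, minus strand) encodes 11beta-HSD1, the enzyme that makes active corticosterone from its inert keto form. It stood at 3.10, 1.75, 2.22 and 2.78 FPKM in treatment hearts, 8.03, 8.01, 4.53 and 2.95 FPKM in case hearts and 2.27, 2.33 and 2.10 FPKM in control hearts. Case libraries a and b were the highest, c was intermediate, and d exceeded the controls but fell inside the treatment range. The case group rose 2.70-fold over control (log2 1.44 ± 0.348, adjusted p = 0.0191), and the treatment group fell 2.48-fold below case (-1.31 ± 0.314, adjusted p = 0.0279). Without case library a, or without any 1 of the control libraries, the first call was lost (adjusted p 0.0503 to 0.0780). The second was lost in 6 of 11 such fits, those without case library a or b or any 1 treatment library (adjusted p 0.0517 to 0.0836). Lamb3 overlaps Hsd11b1 on the other strand, and because the strand used in counting is not given, reads from bases they share cannot be told apart. Whether their exons overlap was not examined.

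The inactivating partner gene Hsd11b2 had 0 to 7 counts per library, too few to be tested. Of the 11 further genes of steroid synthesis, transport and conversion, 5 could be tested, and 2 of them rose in case against control and fell in treatment against case (3 and 3 without case library d). H6pd encodes the enzyme that supplies 11beta-HSD1 with its cofactor, and averaged 13.1 ± 0.632 FPKM in the treatment group, 15.4 ± 2.09 in the case group and 12.5 ± 0.396 in the control group. Its rise in case against control was small (0.30 ± 0.0802, adjusted p = 0.0266), as was its fall in treatment against case (-0.25 ± 0.0738, adjusted p = 0.0481). Abcb1b, a membrane pump that exports glucocorticoids among other substrates, averaged 1.49 ± 0.212, 2.55 ± 0.252 and 1.58 ± 0.227 FPKM in treatment, case and control hearts. It rose in case against control (0.70 ± 0.129, adjusted p = 0.00595) and fell in treatment against case (-0.80 ± 0.119, adjusted p = 0.00516). Transcripts of the adrenal enzymes Cyp11a1, Cyp11b1 and Cyp11b2 stayed at 0 to 13 counts per library, and Cyp21a1 and the corticosteroid carrier Serpina6 at 0.

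The chaperones moved in opposite directions. Fkbp4 (chr6:128429735-128438677, minus strand) encodes FKBP52, which links the receptor to transport toward the nucleus and favours its activity. Its level was 122, 113, 112 and 108 FPKM in treatment hearts, 73.3, 82.2, 94.6 and 94.7 FPKM in case hearts and 131, 129 and 132 FPKM in control hearts. The groups did not overlap in any of the 3 comparisons, and case library d sided fully with its own group.

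Fkbp4 fell 1.51-fold in the case group against control (-0.59 ± 0.0798, adjusted p = 0.00119) and rose 1.30-fold in the treatment group against case (0.38 ± 0.0745, adjusted p = 0.0148). Both calls were kept in all 11 fits without 1 library. The treatment group lay below the control group by -0.22 ± 0.0800 on the log2 scale, which did not pass (adjusted p = 0.311).

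Fkbp5 (chr17:28399094-28517527, minus strand) encodes FKBP51, the chaperone that lowers the affinity of the receptor for its hormone and is itself induced by it. Levels of 4.75, 3.77, 4.07 and 2.82 FPKM were read in treatment hearts, 26.9, 29.01, 18.4 and 7.53 FPKM in case hearts and 3.68, 5.53 and 5.66 FPKM in control hearts. All 4 case hearts exceeded all others, library d by the smallest margin. The case group rose 4.25-fold over control (2.09 ± 0.408, adjusted p = 0.00794), and the treatment group fell 5.54-fold below case (-2.47 ± 0.373, adjusted p = 0.00566). These were the largest changes of the set in both comparisons, and they were called in all 11 fits without 1 library (2.38 and -2.76 without case library d). In case libraries a to c Fkbp5 exceeded the receptor transcript Nr3c1, whereas in the other 8 libraries it was below it.

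The balance of these immunophilins differed accordingly. The ratio of Fkbp5 to Fkbp4 was 0.0261 to 0.0389 in the treatment hearts, 0.367, 0.353, 0.195 and 0.0795 in case hearts a to d, and 0.0281 to 0.0430 in the control hearts. Library d thus had the lowest ratio of the case group and still exceeded all treatment and control hearts.

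**Figure D2:**
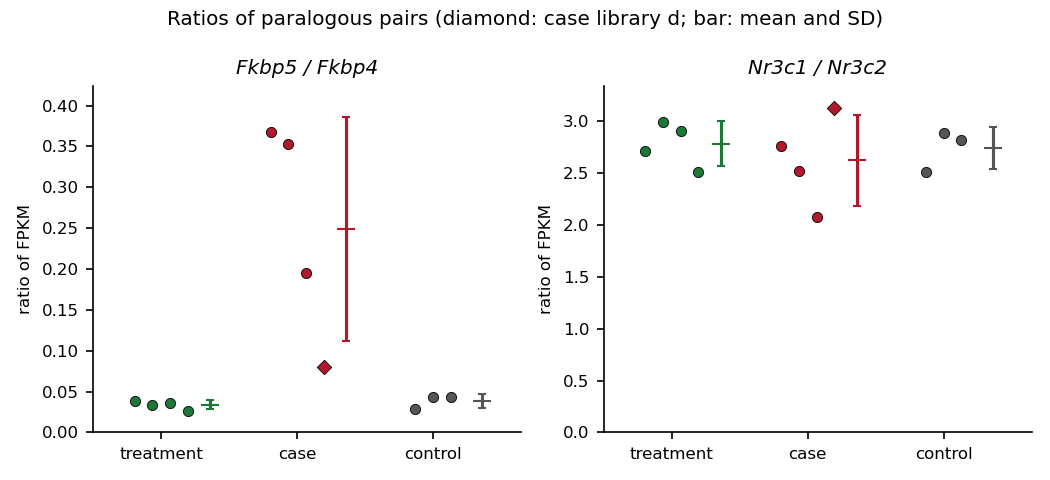
Ratio of FPKM of Fkbp5 to Fkbp4 (left) and of Nr3c1 to Nr3c2 (right) per library, from 0, in the treatment (n = 4), case (n = 4) and control (n = 3) groups, with mean and SD beside the points and case library d as a diamond. The Fkbp5 to Fkbp4 ratio averages 0.0337 in treatment, 0.249 in case and 0.0380 in control hearts, while the receptor ratio lies between 2.08 and 3.13 in all libraries.

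Of 14 other chaperones and cochaperones of the receptor complex, none passed in any of the 3 comparisons, with median log2 changes of -0.01, -0.01 and 0.02 (all genes tested: 0.01 in each). The lowest p in case against control were those of Ppid (cyclophilin 40, another immunophilin of the complex) and Hsp90aa1 (the inducible HSP90). They differed by -0.25 ± 0.0889 (adjusted p = 0.0791) and 0.31 ± 0.119 (adjusted p = 0.0986). Without case library d both passed, Ppid lower (adjusted p = 0.0316) and Hsp90aa1 higher (adjusted p = 0.0339), and 1 of the 14 rose in treatment against case.

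The 5 direct targets were high in case libraries a and b, and differed from each other in libraries c and d. Tsc22d3 (chrX:140539528-140600659, minus strand) encodes GILZ, a leucine zipper protein that mediates anti-inflammatory actions of glucocorticoids. It was at 18.5, 22.2, 19.1 and 24.2 FPKM in treatment hearts, 51.5, 44.2, 47.6 and 31.1 FPKM in case hearts and 28.9, 31.6 and 31.7 FPKM in control hearts. Case libraries a to c were above all others, library d was within the control range, and every treatment heart was below every control heart.

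Treatment hearts fell 2.13-fold in Tsc22d3 against case (-1.09 ± 0.160, adjusted p = 0.00516), and this call was kept in all 11 fits without 1 library. Case against control did not pass (0.52 ± 0.172, adjusted p = 0.0589), but passed without case library d (0.68, adjusted p = 0.000686) and with DESeq2 (adjusted p = 0.0212). Against control, treatment hearts differed by -0.57 ± 0.170 (adjusted p = 0.186), and Tsc22d3 fell there without case library d (adjusted p = 0.0135) and in a fit of these 2 groups alone (adjusted p = 0.00663).

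Sgk1 (chr10:21882184-21999903, plus strand), a kinase that raises the activity of sodium channels and other transporters, answers both receptors. Its values were 20.4, 14.9, 13.8 and 20.8 FPKM in treatment hearts, 104, 91.5, 26.1 and 19.4 FPKM in case hearts and 26.0, 28.3 and 34.3 FPKM in control hearts. The case group was split, with libraries a and b high, c at the lower edge of the controls and d among the treatment hearts. Sgk1 varied most within the case group, with a coefficient of variation of 72.5%. Against control the case group did not pass (1.08 ± 0.518, adjusted p = 0.173), and without library d it rose by 1.39 (adjusted p = 0.0192). Treatment hearts fell against case (-1.86 ± 0.482, adjusted p = 0.0346), a call kept in only 2 of the 11 fits without 1 library (adjusted p up to 0.104), those without case library c or d. Every treatment heart was below every control heart (-0.77 ± 0.501, adjusted p = 0.624).

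Zbtb16 (chr9:48654297-48836222, minus strand) encodes PLZF, a zinc finger repressor of transcription and one of the most strongly induced genes in many steroid-treated tissues. It was at 46.4, 24.8, 30.9 and 45.6 FPKM in treatment hearts, 117, 124, 115 and 45.8 FPKM in case hearts and 37.3, 34.6 and 47.0 FPKM in control hearts. Case libraries a to c were nearly equal, and library d was inside the ranges of both other groups. The case group rose 2.59-fold (1.37 ± 0.343, adjusted p = 0.0217) and the treatment group fell 2.80-fold below case (-1.49 ± 0.312, adjusted p = 0.0183). Without case library a or any 1 control library the rise was not called (adjusted p 0.0535 to 0.0907), nor was the fall without treatment library b or c or case library a (adjusted p 0.0502 to 0.0548). In case libraries a to c Zbtb16 exceeded Fkbp4, the most abundant gene of the set in all other libraries.

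Hif3a (chr7:17031507-17062427, minus strand) encodes an alpha subunit of the hypoxia-inducible factors, some forms of which restrain the others. With 75 to 112 counts in treatment, 116 to 569 in case and 111 to 121 in control hearts, it was the lowest of the set in every library. Levels were 0.361, 0.416, 0.547 and 0.426 FPKM in treatment hearts, 2.51, 2.35, 2.53 and 0.587 FPKM in case hearts and 0.560, 0.558 and 0.562 FPKM in control hearts. Case libraries a to c were tightly grouped, and d exceeded the controls by a margin smaller than the counting error at 116 reads. The case group rose 3.64-fold (1.86 ± 0.415, adjusted p = 0.0138) and the treatment group fell 4.72-fold below case (-2.24 ± 0.382, adjusted p = 0.00967). The fall was called in all 11 fits without 1 library, and the rise was lost without any 1 control library (adjusted p 0.0568 to 0.0603).

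Slc10a6 (chr5:103605711-103629403, minus strand) encodes a sodium-coupled transporter that brings sulfated steroid hormones into cells. It was read at 2.16, 2.43, 1.99 and 1.96 FPKM in treatment hearts, 16.2, 11.8, 11.8 and 4.38 FPKM in case hearts and 2.24, 2.94 and 3.11 FPKM in control hearts. All case hearts exceeded all others, as for Fkbp5, and library d was again the lowest of them. Slc10a6 rose 4.08-fold in case against control (2.03 ± 0.360, adjusted p = 0.00486) and fell 5.35-fold in treatment against case (-2.42 ± 0.331, adjusted p = 0.00516), in all 11 fits without 1 library. Of the genes with a complete motif in the printed windows, Slc10a6 was called in both comparisons, and Sgk1 in treatment against case. The searched genes without a complete motif were called as well. Those were Fkbp4, Fkbp5, Hsd11b1 and Hif3a in both comparisons, Nr3c2 in case against control and Tsc22d3 in treatment against case.

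**Figure D3:**
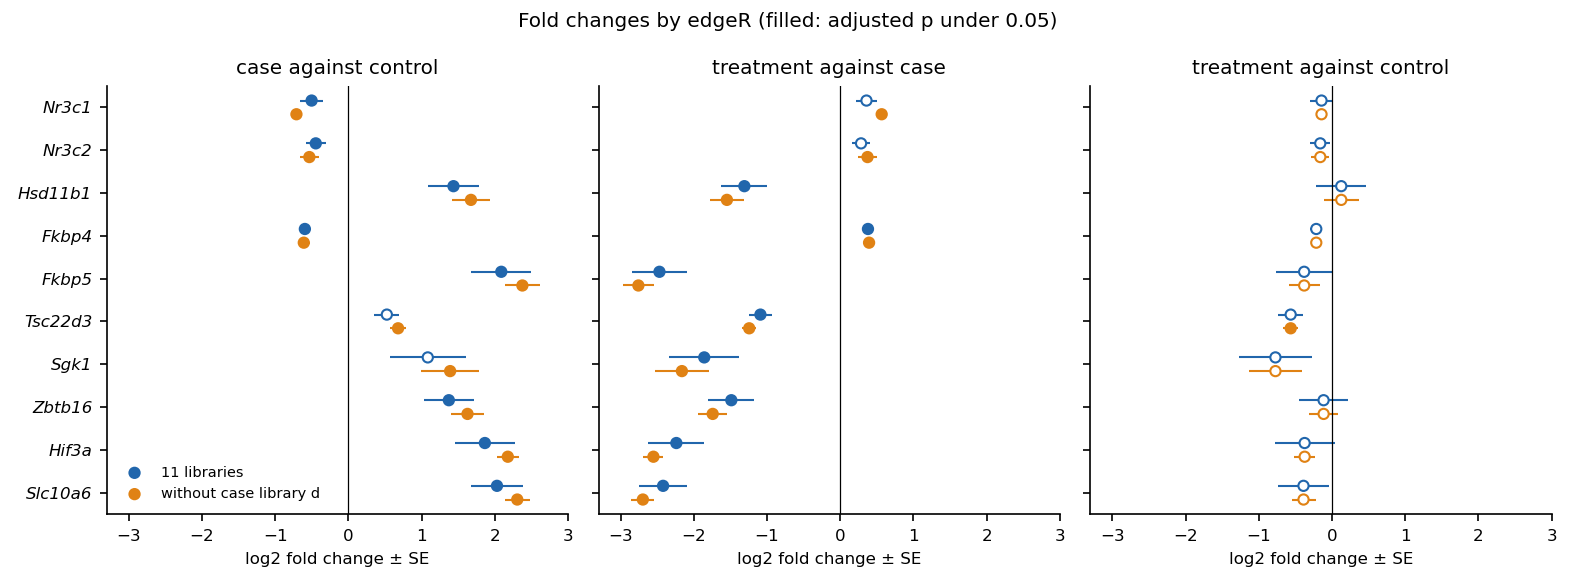
Log2 fold change (horizontal axis) with SE for the 10 genes in the 3 comparisons, by edgeR, over all 11 libraries and without case library d. Filled points have an adjusted p under 0.05. The fold changes of the case group keep their sign without library d, all 10 genes then pass in both comparisons with the case group, and Tsc22d3 passes in treatment against control.

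Without case library d all 10 genes passed in case against control, 7 higher and 3 lower, beside 16.5% and 15.5% of all genes. In treatment against case 7 were lower and 3 higher, beside 16.2% and 15.2%. The groups did not overlap in FPKM for 6 of the 10 genes in case against control with all libraries, 4 above (13.7% of all genes) and 2 below (11.3%). In treatment against case they did not overlap for 5, 4 below (8.22%) and 1 above (6.1%). A fit of only the 2 groups compared takes the spread from those libraries alone. It called 3 genes in case against control (Fkbp4, Fkbp5 and Slc10a6) and 4 in treatment against case (Fkbp5, Tsc22d3, Hif3a and Slc10a6). The shares of all genes were 6.2% and 1.97%. In treatment against control 1 gene was lower without case library d (Tsc22d3, beside 1.76% of all genes) and 2 were in the fit of those groups alone (Sgk1 and Tsc22d3, beside 3.79%). In that fit the case hearts do not enter the spread, and the SE of every gene of the set was smaller (Sgk1 0.152, in place of 0.501). It called 5.92% of all genes in either direction.

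The position of case library d differed by gene. On the log2 scale its deviation from the control mean was 90.0% of the mean deviation of case libraries a to c for Fkbp4 and 38.3% for Nr3c2. For Slc10a6, Fkbp5 and Hsd11b1 it was 25.5%, 22.9% and 19.4%. For Zbtb16 (8.04%), Nr3c1 (2.09%) and Hif3a (-0.91%) it was close to the control mean, and for Tsc22d3 (-10.1%) and Sgk1 (-59.9%) it lay on the other side of it. Library c was intermediate for Hsd11b1 and Fkbp5, near a and b for Zbtb16 and Hif3a, and for Sgk1 slightly below the control libraries on this scale (-0.21).

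**Figure D4:**
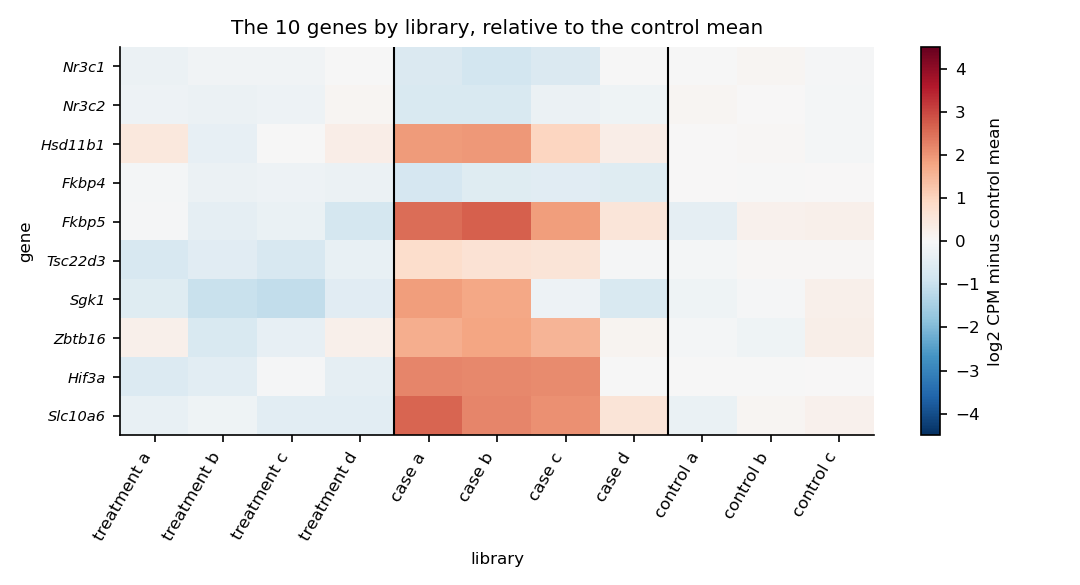
Log2 CPM (counts scaled to a common library total) of the 10 genes (rows) in each library (columns: treatment, case, control), as the difference from the control mean of the gene, with red above and blue below. Case libraries a and b are red for Hsd11b1, Fkbp5 and the 5 targets and blue for both receptors and Fkbp4. Case library d differs by 0.54 for Fkbp5, 0.58 for Slc10a6 and -0.68 for Sgk1.

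In treatment against control, 0 of the 10 genes passed by edgeR, 2 had an unadjusted p under 0.05 (Fkbp4 and Tsc22d3), and 0 passed with DESeq2, beside 1.08%, 11.3% and 2.96% of all genes. The log2 differences ran between -0.77 (Sgk1) and 0.13 (Hsd11b1), with SE up to 0.501, and 9 of the 10 were below 0. These SE rest on a spread estimated over all 3 groups, the case hearts included. For 4 genes, Fkbp4, Tsc22d3, Sgk1 and Hif3a, every treatment heart was below every control heart, which was so for 9.05% of all genes. For the strongest responders the treatment and control means were 3.85 ± 0.802 and 4.95 ± 1.10 FPKM for Fkbp5, and 2.14 ± 0.216 and 2.76 ± 0.460 FPKM for Slc10a6. A missed threshold does not show that the groups were equal.

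Library profiles were compared by the root mean square difference of log2 CPM from the control mean over the 11 libraries, with 2936 variable genes as candidates. This is a description over libraries that share the same groups. The closest gene to Fkbp5 was Slc10a6, and the closest to Slc10a6 was Fkbp5 (0.226), with the metallothionein gene Mt1 next for both (0.263 and 0.262). Sgk1 was closest to Slc25a33 (0.298), Nfkbia (0.299) and Dusp1 (0.337), genes that were also high in case libraries a and b. Hif3a was closest to Herpud1 (0.225), Tsc22d3 to Ucp2 (0.170), Hsd11b1 to St8sia6 (0.182) and Zbtb16 to Mylip (0.272). Within the set the nearest pairs were Nr3c1 with Nr3c2 (0.157) and Nr3c2 with Fkbp4 (0.189), whose own variation was small. Tsc22d3 and Sgk1 stood apart from the other targets: each had the other as its nearest gene of the set, at 0.600.

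A wider list of 28 other glucocorticoid-induced genes was read beside the set. Like the set, this list was chosen with earlier results of these data known, so its counts are a description and were not tested. In case against control 17 of the 28 rose and none fell (median log2 change 1.39), beside 8.21% higher and 7.55% lower among all genes. None rose and 23 fell in treatment against case (-1.61), beside 4.33% and 6.57%, and in treatment against control 1 rose and 1 fell (-0.22), beside 0.292% and 0.79%. Without case library d, 26 rose and none fell in the first comparison (all genes 16.5% and 15.5%), none rose and 25 fell in the second (15.2% and 16.2%), and 2 rose and 5 fell in the third (0.722% and 1.76%). The same shares of all genes apply to the counts of the other lists. Lcn2, a secreted carrier of iron-binding compounds, averaged 2.47 ± 1.17, 6.05 ± 0.842 and 0.402 ± 0.162 FPKM in treatment, case and control hearts. It rose in case against control (3.92 ± 0.417, adjusted p = 0.000479), fell in treatment against case (-1.32 ± 0.317, adjusted p = 0.0281), and rose in treatment against control (2.60 ± 0.406, adjusted p = 0.0119). Cebpd, a transcription factor, rose by 1.40 in case against control (adjusted p = 0.00268) and fell in treatment against case (-1.85, adjusted p = 0.00242). Glul, glutamine synthetase, did likewise (1.68, adjusted p = 0.00421, and -1.67, adjusted p = 0.00651). Ptgds, a prostaglandin D synthase, rose in case against control (2.43, adjusted p = 0.00403), whereas treatment against case did not pass (-0.80, adjusted p = 0.151). Ptgds, without case library d, fell in treatment against case (-1.08, adjusted p = 0.00473) and rose in treatment against control (1.63, adjusted p = 0.00596). All of these genes answer other signals as well.

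**Figure D5:**
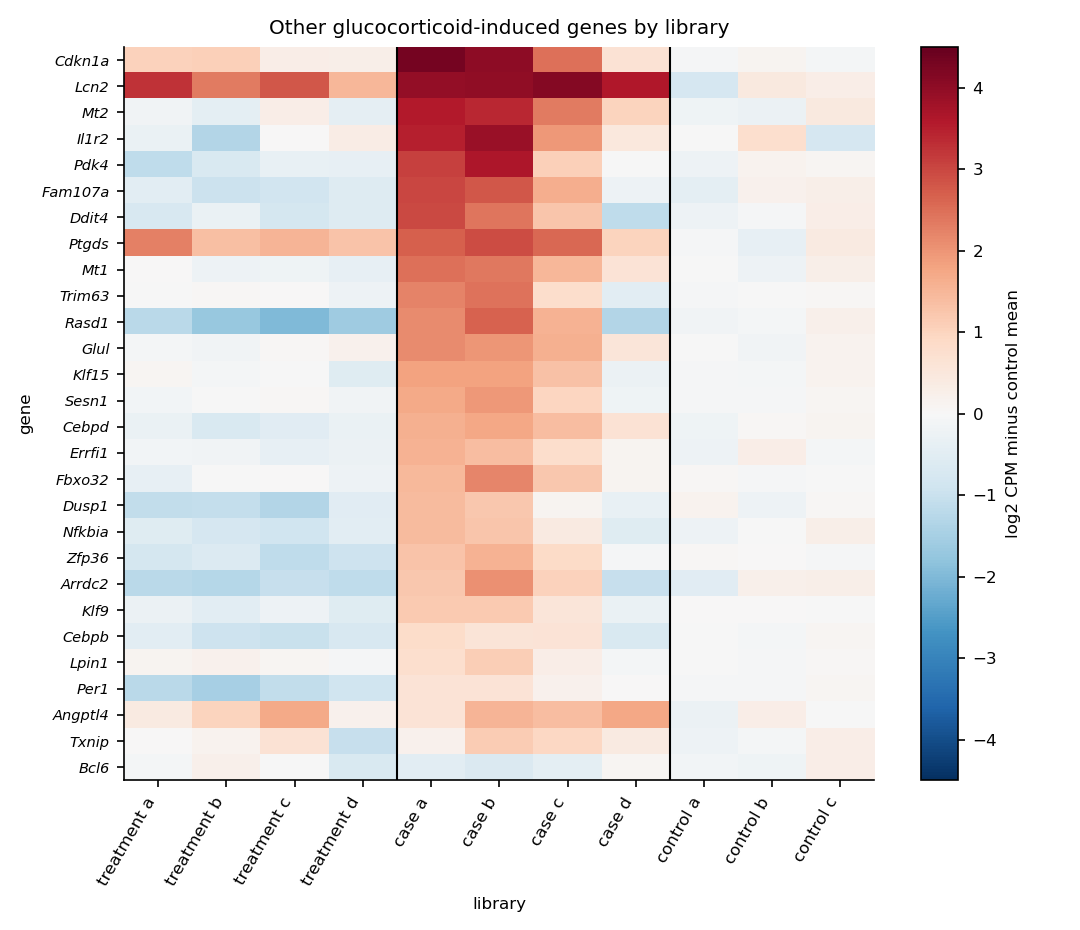
Log2 CPM (counts scaled to a common library total) of the 28 other glucocorticoid-induced genes (rows, ordered by case library a) in each library (columns: treatment, case, control), as the difference from the control mean. Most rows are red in case libraries a to c and pale in d, and Lcn2 and Ptgds are red in the treatment libraries as well. Rasd1 (-1.98 to -1.23), Arrdc2 (-1.28 to -1.05) and Per1 (-1.49 to -0.88) are among the genes whose treatment libraries all lie below every control library.

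Of 12 coregulators of the receptors, none rose and 2 fell in case against control (all genes 8.21% and 7.55%), among them Smarca4 (a chromatin remodelling ATPase, -0.26 ± 0.0766, adjusted p = 0.0417). In treatment against case 2 fell. Leaving out case library d gave 2 that rose and 3 that fell in case against control (16.5% and 15.5% of all genes), and 1 and 4 in treatment against case (15.2% and 16.2%), counts near the background in the first comparison. Of 10 tested targets linked to the mineralocorticoid receptor, 2 rose in case against control (all genes 8.21%) and 2 fell in treatment against case (6.57%). Leaving out case library d, 3 rose and 1 fell in the first comparison (16.5% and 15.5%), and 1 rose and 4 fell in the second (15.2% and 16.2%). In treatment against control 1 of these targets fell, both with and without library d (0.79% and 1.76% of all genes). Ccn2, a matrix-associated growth factor, averaged 23.4 ± 7.95, 86.4 ± 51.9 and 23.2 ± 3.91 FPKM in treatment, case and control hearts (case against control 1.93 ± 0.455, adjusted p = 0.0171). Edn1, the endothelin-1 gene, averaged 2.03 ± 0.337, 3.08 ± 1.31 and 1.21 ± 0.450 FPKM (1.38 ± 0.385, adjusted p = 0.0329).

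Of 13 inflammatory genes that glucocorticoids are known to repress, 2 rose in case against control, the adhesion molecule Icam1 (0.93 ± 0.107, adjusted p = 0.000715) and the chemokine Cxcl1 (1.08 ± 0.331, adjusted p = 0.0460), and 2 fell, the macrophage growth factor Csf1 (-1.16 ± 0.275, adjusted p = 0.0176) and Nos2 (-1.65 ± 0.413, adjusted p = 0.0217). Among all genes 8.21% rose and 7.55% fell, and counts this small were not tested against those shares. The median log2 change of the 13 was 0.86 in case against control (0.27 without case library d). It was 0.01 in treatment against case and 0.48 in treatment against control, where the median of all genes tested was 0.01 in each. In treatment against case Csf1 rose (0.90, adjusted p = 0.0461) and Icam1 fell (-0.44, adjusted p = 0.0215). Of the 12 tested without case library d, 2 rose and 3 fell in case against control (16.5% and 15.5% of all genes), and 3 rose and 1 fell in treatment against case, Nos2 being among those that rose there (1.73, adjusted p = 0.00146, against 1.18 and 0.0691 with library d).

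Other sources of variation were read from 9 lists. Corticosterone follows a daily rhythm, and of 18 clock genes (Per1 is also among the 28) 3 rose in case against control (Arntl and Nfil3 among them) and Hlf fell, 3 fell in treatment against case, and 2 fell in treatment against control. With case library d left out, 7 rose and 5 fell in case against control (16.5% and 15.5% of all genes), 1 rose and 5 fell in treatment against case (15.2% and 16.2%), and 1 rose and 2 fell in treatment against control. Their summed level was 176 to 225 FPKM in treatment, 216 to 281 in case and 276 to 281 in control hearts. That sum joins genes that moved in opposite directions. Arntl was at 7.51, 5.35, 2.03 and 0.601 FPKM in case hearts a to d. Its range was 0.756 to 4.39 in treatment and 0.261 to 0.336 in control hearts. Hlf was at 2.35, 2.55, 7.06 and 8.31 FPKM in case hearts a to d. Its range was 4.73 to 7.73 in treatment and 11.2 to 12.8 in control hearts. The hour at which hearts were taken is not given in the sources used here, and its part in the results was not tested. None of the 8 cardiomyocyte, 4 tested adipocyte, 2 tested lymphocyte or 4 atrial markers passed in case against control. Among 8 fibroblast markers Dcn and Pdgfra rose (summed level 205 to 442, 171 to 672 and 262 to 300 FPKM in treatment, case and control hearts), and among 8 endothelial markers Vwf rose and Emcn fell (204 to 235, 197 to 219 and 213 to 229 FPKM). Of 5 tested neutrophil markers 3 rose (2.57 to 20.3, 6.12 to 14.6 and 1.01 to 1.23 FPKM), and of 7 erythroid markers 6 rose (796 to 1715, 608 to 1067 and 222 to 265 FPKM). Without case library d 1 cardiomyocyte marker fell, 2 endothelial markers rose and 3 fell, and all 7 erythroid markers rose, while the counts of the other marker lists stayed the same.

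In treatment against case the fibroblast marker Dcn fell (-0.51, adjusted p = 0.0107), as did the endothelial marker Vwf (-0.40, adjusted p = 0.0326) and the lymphocyte marker Cd2 (-2.77, adjusted p = 0.0195). Cd2 was barely detected, at no more than 0.0557 FPKM in any treatment heart and 0.425 FPKM in any case heart. Its lowest counts there were 1 and 6, so its fall rests on few reads. In all, 1 endothelial marker rose and 2 fell, and no cardiomyocyte, adipocyte, neutrophil, erythroid or atrial marker passed. With case library d left out, 1 fibroblast marker rose and 1 fell, 3 endothelial markers rose and 2 fell, 1 neutrophil and 1 erythroid marker rose, and 1 lymphocyte marker fell. In treatment against control 5 of 7 erythroid markers rose (7 without case library d), and no marker of the other lists passed (1 endothelial and 1 neutrophil marker rose without it). The summed level of the 4 atrial markers was 140 to 418 FPKM in treatment, 84.9 to 269 in case and 65.4 to 132 in control hearts. In this sum treatment and control hearts did not overlap, and library d was the highest of the case hearts. Nppa was the largest part of the sum in every library. Each of the 4 genes alone overlapped between treatment and control hearts, Nppa at 89.3 to 391 and 52.9 to 94.4 FPKM. Case library d was also the highest case heart in the summed cardiomyocyte (15787 FPKM), fibroblast (672) and clock (281) genes. The part of these cell types in the results was not tested, and in whole hearts fewer cells of a type and less RNA per cell cannot be told apart.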

How the data were processed

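The 10 genes and the 15 further lists were chosen with earlier results of these data known. The authors deposited 1 table of raw counts per gene and library, not normalized, with the length of each gene in bases. Dividing the count times 1000000000 by that length and by the library total gave FPKM. A further 11 columns of values per library were left aside. Cutadapt, HISAT2, TopHat2 and mm10 appear in the processing notes of the submitters, and no source used here gives their roles, the counting program or its strand setting. A supplementary table of the study names the case and treatment columns, the 3 that remain were read as control, and none carries a replicate number. The single-end libraries were not analysed here.

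Counts were tested with edgeR 4.0.16 (R 4.3.3): low counts filtered by its own function (14050 genes kept), TMM scaling (0.927 to 1.061), 1 model of 3 group means over 11 libraries, quasi-likelihood F test, Benjamini-Hochberg adjustment over all genes tested, and SE as the log2 fold change over the root of F. The scripts were tested on simulated data. All 10 genes are named. From each list up to 4 genes are named, those with the lowest p among those called in case against control, or 2 if fewer than 2 were called. Some genes that this rule would name are not reported here. Likeness used log2 CPM (prior count 2) and genes whose profile had an SD of at least 0.5. Alternatives were DESeq2 1.42.0 (its size factors, its Wald test), limma 3.58.1 on log2(FPKM + 1) and log2(FPKM + 0.1), no filter, only the 2 groups compared, and each library left out. Libraries of a group differed beyond sampling noise (chi-square per degree of freedom at least 7.56). Deposited start and end positions differ from GENCODE M21, whose positions are given. Sequences are from RefSeq; Zbtb16 had no window and Nr3c1 was not searched.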

Additional observations from a re-analysis of the deposited data

Results flagged for a closer look

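In 20 groups of 4 libraries (10 genes in the treatment and the case group) the gap between the most distant library and its neighbour was set against the range of the group, and 3 gaps exceeded Dixon's 95% critical value. Chance gives about 1 such gap in 20 independent groups, and these are not independent, since the 10 genes share the same libraries. Case library d was far below the other case libraries for Zbtb16 (gap of 0.892 of the range) and Hif3a (0.909). Treatment library d was above the other treatment libraries for Nr3c2 (0.918), at 9.64 FPKM against 7.61 to 7.78 FPKM.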

How the results depend on the processing

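No paired analysis was possible because no source links the letters of the columns with the numbered replicates. Of the 10 genes, 8, 8 and 0 passed in case against control, treatment against case and treatment against control over all libraries. When only the 2 groups compared were fitted the counts were 3, 4 and 2, the last being Sgk1 and Tsc22d3. Leaving out 1 library at a time gave 3 to 10, 5 to 10 and 0 to 1, beside 4.95% to 32.0%, 2.66% to 31.4% and 0.148% to 2.48% of all genes. The highest counts came without case library d. In case against control 3 genes passed without control library a, b or c (4.95%, 5.58% and 5.25% of all genes) and 4 without case library a (8.71%). In treatment against case 5 passed without case library a (2.68%), treatment library b (2.66%) or treatment library c (4.28%). In treatment against control, where neither gene passed under any of these settings, leaving out 1 library moved the difference of Hsd11b1 between -0.0085 (without treatment library a, the only change of sign) and 0.27, and that of Zbtb16 between -0.25 and 0.045 (without treatment library b; 0.027 without control library c). No other log2 fold change of the 10 genes changed sign under any alternative run. Besides those fits, Nr3c1 missed the threshold in case against control with DESeq2's size factors (adjusted p = 0.0506), with no filter (0.0503) and with limma (0.0691 and 0.0664 at pseudocounts of 1 and 0.1), Nr3c2 with no filter (0.0528) and with limma (0.0823 and 0.0801), and Sgk1 in treatment against case with limma (0.0748 and 0.0708). DESeq2's Wald test called both receptors as fallen in case against control (Nr3c1 adjusted p = 0.0205, Nr3c2 0.0244). The cause of these shifts was not tested. Hif3a, at 75 to 569 counts, has the widest counting error of the set.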
